A study of Homo sapiens with 60 samples.

Results

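The proteasome subunits and their assembly factors were followed in HT29 cells, a line from a human colorectal adenocarcinoma, 24 h after the addition of plant water extracts or of the vehicle alone. The members were the protein-coding genes whose symbol starts with PSMA, PSMB, PSMC, PSMD, PSME, PSMF or PSMG, without the immunoproteasome genes PSMB8, PSMB9 and PSMB10. The rule took 47 of 60675 genes. Of these, 45 passed the filter on low counts and were tested, while PSMA8 and PSMB11, subunits known from testis and thymus, had 0 counts in the vehicle and were not. PSMC3IP and PSME3IP1 entered through their symbols, which are those of proteins that bind a subunit, and are not proteasome parts. A further 51 gene identifiers with these symbol starts are not protein-coding, mostly processed pseudogenes, and expected counts can divide reads between a gene and such a copy.

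The treated groups were Cinnamomi Cortex, Cnidii Rhizoma, Rehmanniae Radix Preparata, Astragali Radix and Paeoniae Radix, which are single plant drugs, and the formulae Sagunja-tang and Samul-tang, each at 20, 100 and 500 µg/mL. The vehicle was dimethyl sulfoxide, given as 0.1% in the sample labels and as 2% in the design text. That text also states that an extract with a lower IC20, the concentration that inhibits by 20%, was given at that level and diluted from it, so the doses are nominal. Every group had 3 libraries except Paeoniae Radix, which had 1 per dose. Whether replicates were separate cultures is not stated in the labels, so the p-values rest on the spread between libraries, which may be technical.

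Proteasomes degrade proteins tagged with ubiquitin. Rings of alpha subunits (PSMA genes) and beta subunits (PSMB genes) stack into a barrel whose cutting sites lie on PSMB5, PSMB6 and PSMB7, and a cap of ATPases (PSMC genes) and further subunits (most PSMD genes) binds, unfolds and feeds in the substrates. Subunit genes are known to be switched on together by the transcription factor NRF1, the product of NFE2L1, when proteasome activity is short.

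The 60 libraries held 20459346 to 36253747 counts. Colorectal epithelial markers were present in the vehicle, at 6015 CPM (counts scaled to library size) for KRT8, 525 CPM for EPCAM and 172 CPM for VIL1. CDX2 stood at 5.41 CPM and CDH17 at 5.11 CPM. Of the fibroblast, leukocyte and hepatocyte markers, COL3A1, CD3E, ALB and F9 were at 0. The highest of each kind were COL1A1 at 1.37, CD14 at 2.81 and TTR at 0.40 CPM. The sample codes of the 57 replicated libraries run in series, and the libraries separated along them on the first principal component, which held 22.6% of the variance. A first set of 27 libraries holds all libraries of Rehmanniae Radix Preparata, Cnidii Rhizoma and the vehicle, and the replicates numbered 1 of the Astragali Radix and Cinnamomi Cortex groups. A second set of 30 holds both formulae and replicates 2 and 3 of the same groups, of which Cinnamomi Cortex 500 replicate 2 lay with the first set. What the codes stand for is not given in the sources used here, and the titles of all 60 libraries carry the same label, BatchB. These are bulk libraries, in which fewer cells of a type and less RNA per cell cannot be told apart.

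In the vehicle, the 47 members together took 0.536 ± 0.028% of all counts (SD, n = 3). Per kilobase of the principal transcript, PSME3, the activator of nuclear proteasomes, was at 286 ± 8.66 CPM and the structural beta subunit PSMB3 at 275 ± 22.3 CPM. The lid subunit PSMD8 followed at 184 ± 4.79 CPM per kilobase and the alpha subunit PSMA7 at 172 ± 14.9, a pair that did not differ beyond its spread. Among the catalytic subunits the order was PSMB7 at 126, PSMB6 at 68.5 and PSMB5 at 44.3 CPM per kilobase. By role the median was 132 CPM per kilobase for structural beta subunits, 91.0 for alpha subunits, 64.8 for the lid, 58.7 for the ATPases, 27.2 for the core assembly chaperones (PSMG genes) and 16.8 for the base assembly chaperones PSMD5, PSMD9 and PSMD10. The lowest tested member was PSMD9, at 7.07 ± 0.92 CPM per kilobase. These orders depend on the annotated length, for PSME3 998 of 5152 exonic bases, and the transcripts in use were not measured. The members' median range over the 19 replicated groups was 0.28 on the log2 scale, against 0.34 for all 16356 tested genes. Their median SD within groups was also smaller, at 0.076 against 0.109. Neither comparison was matched for expression level.

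Promoter sequences are shown for the members that the comparisons below turn on. The letters TGACNNNGC, the core of the antioxidant response element that NRF1 and NRF2 bind, and CCAAT, the box bound by NF-Y, were searched on both strands of the RefSeq windows (GRCh38.p14, 250 bases before to 50 after each start). Entries existed for 41 members, with 51 windows. TGACNNNGC lay in 27.5% of member windows and 13.3% of all 35116 windows, its form with an A after these letters in 15.7% and 3.18%, and CCAAT in 45.1% and 34.6%. Each line below gives the 250 bases before the start, 5′ to 3′ on the gene's strand, with both patterns or their reverse complements in capitals.
PSMC4: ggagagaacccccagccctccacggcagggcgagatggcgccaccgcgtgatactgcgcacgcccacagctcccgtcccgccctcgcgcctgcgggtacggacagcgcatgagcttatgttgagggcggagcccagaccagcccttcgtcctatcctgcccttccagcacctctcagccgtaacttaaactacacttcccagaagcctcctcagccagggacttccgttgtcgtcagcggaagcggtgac
PSMB2: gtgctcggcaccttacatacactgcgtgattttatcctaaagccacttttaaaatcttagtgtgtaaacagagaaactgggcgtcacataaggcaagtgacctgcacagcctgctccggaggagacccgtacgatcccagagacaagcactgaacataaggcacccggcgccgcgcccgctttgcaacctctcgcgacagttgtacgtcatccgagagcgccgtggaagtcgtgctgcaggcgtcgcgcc
PSMD11: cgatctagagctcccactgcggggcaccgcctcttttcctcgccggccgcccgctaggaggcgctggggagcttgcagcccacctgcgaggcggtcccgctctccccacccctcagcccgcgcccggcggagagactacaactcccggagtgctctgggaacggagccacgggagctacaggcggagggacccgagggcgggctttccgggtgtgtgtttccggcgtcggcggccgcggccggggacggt
PSMD3: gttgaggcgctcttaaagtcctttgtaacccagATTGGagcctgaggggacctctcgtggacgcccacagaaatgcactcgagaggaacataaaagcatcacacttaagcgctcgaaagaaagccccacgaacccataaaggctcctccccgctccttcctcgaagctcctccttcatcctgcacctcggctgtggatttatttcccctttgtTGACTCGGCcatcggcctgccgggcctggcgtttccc
PSMB3: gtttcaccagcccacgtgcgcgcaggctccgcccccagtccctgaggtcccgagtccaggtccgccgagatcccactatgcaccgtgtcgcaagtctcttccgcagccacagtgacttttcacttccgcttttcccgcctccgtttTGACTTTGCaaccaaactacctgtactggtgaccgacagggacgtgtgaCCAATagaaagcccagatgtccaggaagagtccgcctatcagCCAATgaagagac
PSMD5: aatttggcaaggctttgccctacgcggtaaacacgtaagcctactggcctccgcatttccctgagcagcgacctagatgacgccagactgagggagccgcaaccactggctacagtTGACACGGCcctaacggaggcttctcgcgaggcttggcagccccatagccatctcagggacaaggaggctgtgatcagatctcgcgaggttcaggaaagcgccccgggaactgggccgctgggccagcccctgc
These windows lie at chr19:39970915-39971164 (plus) for PSMC4, chr1:35641527-35641776 (minus) for PSMB2, chr17:32444260-32444509 (plus) for PSMD11, chr17:39980557-39980806 (plus) for PSMD3, chr17:38752491-38752740 (plus) for PSMB3 and chr9:120842923-120843172 (minus) for PSMD5. The TGACNNNGC match begins 37 bases before the start in PSMD3, 104 in PSMB3 and 134 in PSMD5. PSMB3 also has 2 CCAAT matches and PSMD3 has 1, and the printed bases of PSMC4, PSMB2 and PSMD11 hold neither pattern. In the 50 bases after the start, not printed, PSMC4 has a TGACNNNGC match, and a CCAAT match of PSMB2 spans the start. Both are counted in the shares above. A match is a description of the letters and not evidence of binding.

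With Cinnamomi Cortex (cinnamon bark), proteasome genes were higher at the top dose than at the lowest. At 500 against 20 µg/mL, 11 of the 45 tested members rose and 0 fell at an adjusted p under 0.05 (edgeR's quasi-likelihood test, Benjamini-Hochberg over all tested genes), where 10.2% of all genes passed. The members were 41 of 45 positive, with a median log2 difference of 0.12 against 0.00 for all genes. The 11 came from most parts of the particle: 2 alpha subunits, 1 structural beta subunit, 2 ATPases, 4 lid subunits, a core chaperone and an activator. By the sample codes each dose has 1 library of the first set and 2 of the second. On the first principal component 500 µg/mL replicate 2 lay at -11.74, and 20 µg/mL replicates 2 and 3 at 3.24 and 6.64. The 6 Cinnamomi Cortex and Astragali Radix groups span both sets. In each, PSMC4, PSMB2, PSMG1, PSMA6, PSMD11, PSMD12 and PSMD8 were lower in the second set. PSME3, PSMA3, PSMC2 and PSMD3 were higher there in 1, 2, 2 and 3 groups. The part of the sets in this dose difference was not tested.

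PSMC4, an ATPase of the base, had 159, 157 and 147 CPM at 500 µg/mL, against 136, 137 and 124 CPM at 20 µg/mL. All 3 top-dose libraries lay above all 3 low-dose ones, a log2 difference of 0.22 ± 0.04 (SE; adjusted p = 3.1e-04). PSMB2, a structural subunit of the beta ring, had 288, 288 and 264 CPM at 500 µg/mL and 255, 239 and 234 CPM at 20 µg/mL, again without overlap, a difference of 0.21 ± 0.05 (adjusted p = 0.0051). PSMG1, a chaperone that starts the alpha ring, had 59.4, 59.1 and 55.9 CPM against 53.9, 48.0 and 48.0 CPM, a difference of 0.22 ± 0.07 (adjusted p = 0.028).

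The alpha subunit PSMA6 had 106, 106 and 100.3 CPM at 500 µg/mL and 98.1, 91.5 and 84.5 CPM at 20 µg/mL, a difference of 0.19 ± 0.05 (adjusted p = 0.013). The activator PSME3 had 296, 315 and 282 CPM against 278, 266 and 239 CPM, a difference of 0.19 ± 0.05 (adjusted p = 0.013). In both genes the dose groups were separate. The lid, which removes ubiquitin chains, gave 4 of its 8 members: PSMD11 had 277, 269 and 268 CPM against 254, 240.4 and 225 CPM (log2 difference 0.18 ± 0.04, adjusted p = 0.0055), and PSMD3 had 192, 193 and 211 CPM against 174, 186 and 175 CPM (0.15 ± 0.04, adjusted p = 0.0020). The remaining ones were PSMD12 at 0.18 ± 0.05, PSMD8 at 0.17 ± 0.05, the alpha subunit PSMA3 at 0.17 ± 0.06 and the ATPase PSMC2 at 0.15 ± 0.05 on the log2 scale, with adjusted p from 0.014 to 0.047.

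Among the members that did not pass, the catalytic subunits stood at 0.19 ± 0.07 for PSMB7, 0.10 ± 0.08 for PSMB6 and 0.03 ± 0.09 for PSMB5. The interferon-induced activator PSME2 had a negative difference of -0.10 ± 0.06 (adjusted p = 0.30), and its partner PSME1 0.00 ± 0.05. In 22 members all 3 top-dose libraries lay above all 3 low-dose ones, and in 2 all lay below, against 10.8% and 11.6% of all genes. Within the first set, with 1 library per dose, the members' median difference was 0.11 with 38 of 45 positive, and within the second it was 0.13 with 41 positive. With a term for the library set 17 members rose, all 11 and PSMA1, PSMA4, PSMB7, PSMD7, PSME4 and PSMF1, where 14.2% of genes passed. Without Cinnamomi Cortex 500 replicate 2, the library that lay with the first set, that count was 8. When only the compared groups entered the fit, leaving fewer libraries to estimate the spread, 0 members passed, where 483 of 14920 genes did. Without 500 µg/mL replicate 1 or 2 the count was 5 and 7, where 1153 of 16633 and 1150 of 16599 genes passed. It was 3 without 20 µg/mL replicate 3. PSMC4, PSMD3 and PSMB2 passed whichever of the 6 libraries was left out.

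**Figure D1:**
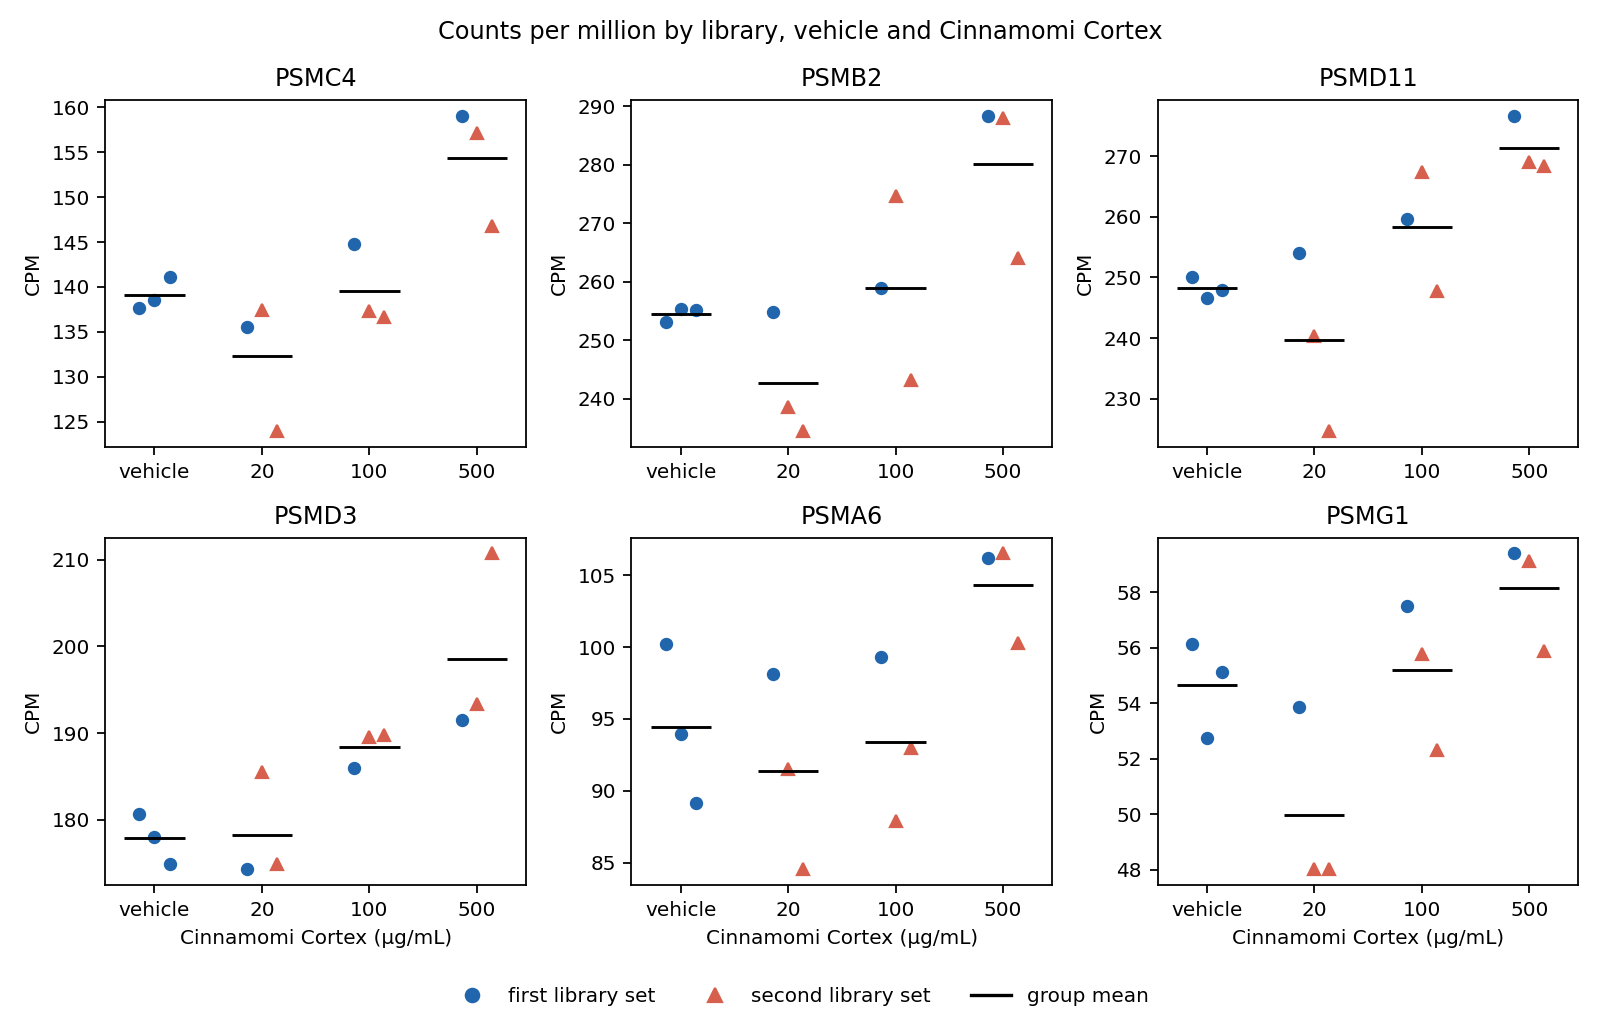
CPM per library of members in the vehicle and at 20, 100 and 500 µg/mL of Cinnamomi Cortex, with bars at the group mean; the marker shape shows the library set. In PSMC4 the top dose spans 147 to 159 CPM and the low dose 124 to 137 CPM.

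Against the vehicle, Cinnamomi Cortex at 500 µg/mL had 11 members higher and 0 lower, where 12.9% of genes passed, with 37 of 45 positive and a median of 0.11 against 0.00 for all genes. The base subunit PSMD2, a scaffold that binds ubiquitin carriers, had 251, 237 and 306 CPM in treated cells and 233, 218 and 197 CPM in the vehicle, a log2 difference of 0.29 ± 0.08 (adjusted p = 0.0078). The ATPase PSMC5 had 112, 109 and 139 CPM against 107, 100.4 and 95.8 CPM (0.25 ± 0.07, adjusted p = 0.012). The catalytic subunit PSMB7 had 141, 136 and 162 CPM against 133, 126 and 113 CPM (0.24 ± 0.07, adjusted p = 0.011). In these 3 genes the groups did not overlap, and replicate 3 of the treated group was the highest library.

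The other risers were the ubiquitin receptor PSMD4 at 0.24 ± 0.08, PSMC1, PSMB4 and PSMB3 at 0.19 to 0.20, and PSMD3, PSMC4, PSMD1 and PSMD11 at 0.13 to 0.16 on the log2 scale. PSMB5 and PSMB6 stood at 0.24 ± 0.09 and 0.21 ± 0.08 with adjusted p of 0.079 and 0.087. With the set term 8 members rose where 11.8% of genes passed, and 3 of them, PSMC4, PSMD3 and PSMD11, were among the 11. The other 5 were PSMA4, PSMA6, PSMB2, PSME4 and PSMG1, at 0.15 to 0.21, and without Cinnamomi Cortex 500 replicate 2 the set-term count was 10. Replicate 1 alone, which shares the vehicle's set, had a median difference of 0.11 with 38 of 45 members positive. The count was 2 without vehicle replicate 3, where 1526 of 16626 genes passed, and 6 without vehicle replicate 2, where 1524 of 16632 did. It was also 2 without Cinnamomi Cortex 500 replicate 3. With only the compared groups in the fit it was 0, where 669 of 14765 genes passed.

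Beside these members the epithelial marker KRT20 was higher at 500 µg/mL, by 0.58 ± 0.07 against 20 µg/mL and 0.46 ± 0.07 against the vehicle. Of the 8 epithelial markers, 2 rose against the low dose (KRT20 and EPCAM) and 3 against the vehicle (KRT20, KRT8 and LGALS4). Of the 4 leukocyte markers only CD14 was tested, at 2.81 CPM in the vehicle, and it fell by 0.42 against the low dose. The part of either change in the members' result was not tested.

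Set against Astragali Radix at the same dose, whose libraries fall into the same sets by their codes, Cinnamomi Cortex at 500 µg/mL had 7 members higher and 1 lower, where 10.8% of genes passed. On the first principal component, however, replicate 2 lay at -11.74 with Cinnamomi Cortex and at 6.46 with Astragali Radix. The median was 0.07 over the members, against -0.01 over all genes. PSMC4 had 159, 157 and 147 CPM with Cinnamomi Cortex and 144, 130.1 and 129 CPM with Astragali Radix, a log2 difference of 0.20 ± 0.04 (adjusted p = 0.0011). PSMD11 had 277, 269 and 268 CPM against 245, 240.3 and 225 CPM (0.20 ± 0.04, adjusted p = 0.0021). Neither gene overlapped between the extracts. PSME2 was the lower one, with 59.1, 59.3 and 56.9 CPM against 66.1, 72.8 and 68.8 CPM (-0.24 ± 0.06, adjusted p = 0.0027), also without overlap.

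The inhibitor of the proteasome PSMF1 was higher by 0.20 ± 0.07, and PSMB2, PSMD8, PSME4 (the nuclear activator PA200) and PSMD3 by 0.13 to 0.17. In each of the 6 groups that span both sets, PSMC4, PSMD11, PSMF1, PSMB2, PSMD8 and PSME4 were lower in the second set. PSMD3 was higher there in 3 of the groups and PSME2 in 5. The part of the sets in these calls was not tested. With the set term all 8 passed and PSMD12 and PSME3 were added, where 14.4% of genes passed, and 6 members passed without Cinnamomi Cortex 500 replicate 2. PSMC4, PSMD11 and PSME2 passed whichever of the 6 libraries was left out. The count of 8 went to 4 and 5 without Cinnamomi Cortex replicate 1 or 2, where 1271 of 16633 and 1232 of 16599 genes passed. It went to 5 and 3 without Astragali Radix replicate 2 or 3. With only the 2 groups in the fit it was 1, where 604 of 14796 genes passed. The difference in dose effect, 500 minus 20 µg/mL of Cinnamomi Cortex less that of Astragali Radix, was positive in 37 of 45 members with a median of 0.08, but 0 passed edgeR's test, where 2.57% of genes did. Of the members 5 had an unadjusted p under 0.05, as did 13.0% of all genes, and DESeq2 called 0.

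In each of the 6 replicated extracts the members' median was higher at 500 than at 20 µg/mL. Paeoniae Radix, with 1 library per dose, had the higher median at the low dose, with 0.11 at 500 and 0.24 at 20 µg/mL, both relative to the vehicle mean. The 6 replicated comparisons share no libraries, and 20 of the 45 members were positive in all 6, against 8.24% of all genes, while 16 were positive in 5, 7 in 4 and 2 in 3. The median difference over the members was 0.12 for Cinnamomi Cortex, 0.10 for Sagunja-tang, 0.08 for Samul-tang, 0.06 for Rehmanniae Radix Preparata, 0.05 for Cnidii Rhizoma and 0.03 for Astragali Radix. With single libraries left out the medians ran from 0.11 to 0.15 for Cinnamomi Cortex, from 0.08 to 0.14 for Sagunja-tang, from 0.05 to 0.09 for Samul-tang and from 0.04 to 0.08 for Cnidii Rhizoma. For Rehmanniae Radix Preparata the median was 0.03 without 500 µg/mL replicate 1 or 20 µg/mL replicate 3, and 0.10 without 500 µg/mL replicate 2. For Astragali Radix it was 0.07 without 500 µg/mL replicate 1 and 0.09 without 20 µg/mL replicate 3. Members are not replicates of a dose, since their levels are read from the same 6 libraries of each extract.

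In the other 5 replicated extracts 0 members passed edgeR's test, and DESeq2 called 0 in each. At an unadjusted p under 0.05 there were 14 members in Sagunja-tang, where 9.77% of all genes reached it, 7 in Rehmanniae Radix Preparata (8.09%), 4 in Astragali Radix (5.61%), 4 in Samul-tang (6.54%) and 0 in Cnidii Rhizoma (7.44%). In Sagunja-tang 44 of 45 members were positive, and 23 had all 3 top-dose libraries above all 3 low-dose ones and 0 all below, against 9.72% and 7.86% of all genes. In Samul-tang these counts were 15 and 0 (8.07% and 7.21% of genes), in Rehmanniae Radix Preparata 11 and 2 (6.54% and 6.57%), in Cnidii Rhizoma 9 and 1 (7.69% and 8.0%) and in Astragali Radix 2 and 0 (4.6% and 4.92%). The difference between Cinnamomi Cortex and these extracts in dose effect was tested for Astragali Radix alone, as given above. Few genes of any kind passed the adjusted threshold: 0.00611% in Sagunja-tang, 0.177% in Rehmanniae Radix Preparata, 0.0734% in Astragali Radix, 0.141% in Samul-tang and 0.428% in Cnidii Rhizoma. By its median over extracts the alpha subunit PSMA2 led, with 0.13, and it was positive in all 6. Sagunja-tang cells had 115, 115 and 118 CPM of PSMA2 at 500 µg/mL and 105, 112 and 93.9 CPM at 20 µg/mL, without overlap, while in Rehmanniae Radix Preparata the 96.3, 79.8 and 96.4 CPM at 500 µg/mL spanned the 87.5, 86.1 and 81.8 CPM at 20 µg/mL. PSMD14, the lid's deubiquitinase, followed at 0.12, then PSMC3IP, which is no subunit, PSMB3 and PSMC2 at 0.11. At the other end PSME1 had a median of -0.01 and was positive in 3 extracts.

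**Figure D2:**
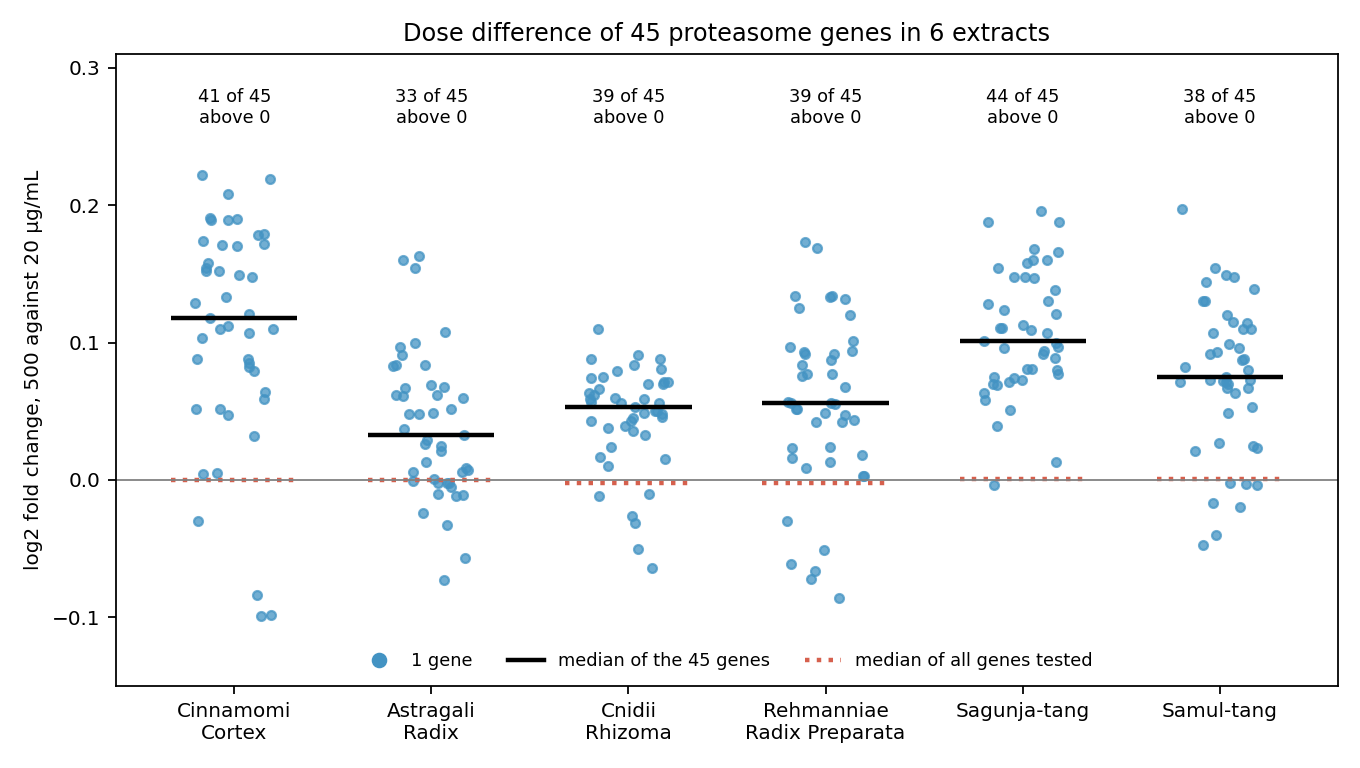
Log2 difference of 500 from 20 µg/mL for each of the 45 tested members (points) in 6 extracts, with the members' median and the median of all genes. The members' medians lie between 0.03 in Astragali Radix and 0.12 in Cinnamomi Cortex.

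Against the vehicle the formulae had more members past the test than any single plant drug when no term for the library set was used. With that term the order of the counts turned round at 500 µg/mL. Cinnamomi Cortex had 8 members (11.8% of genes passed), Sagunja-tang 4 (2.12%) and Samul-tang 0 (1.22%). The medians in that fit were 0.105, 0.132 and 0.098 for Cinnamomi Cortex, Sagunja-tang and Samul-tang, against 0.114, 0.127 and 0.128 without the term. Samul-tang had the highest of these medians without the term and the lowest with it. Without the term, 22 members rose and 2 fell with Sagunja-tang at 500 µg/mL, where 20.2% of genes passed. With Samul-tang 21 rose and 4 fell, where 18.5% passed. The medians were 0.13 in both. Catalytic subunits (3 of 3 in each formula), base subunits other than ATPases (3 of 3), ATPases (4 of 6) and alpha subunits (4 of 7) rose, while in the lid 2 of 8 rose in each.

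PSMA7 led in both formulae. It had 257, 230.3 and 243 CPM with Sagunja-tang and 265, 237 and 221 CPM with Samul-tang, against 186, 173 and 156 CPM in the vehicle. All 6 formula libraries lay above the vehicle, with log2 differences of 0.50 ± 0.12 (adjusted p = 0.0023) and 0.49 ± 0.12 (adjusted p = 0.0034). The ATPase PSMC3 had 139, 143 and 130.0 CPM and 135, 129.8 and 124 CPM in these formulae, against 110.1, 103 and 93.7 CPM in the vehicle. The catalytic PSMB5 had 76.5, 74.3 and 74.6 CPM and 73.9, 75.5 and 73.0 CPM, against 60.5, 58.7 and 52.9 CPM. Neither overlapped the vehicle, and PSMC5, PSMD4 and PSMA2 rose by 0.29 to 0.40 in the same comparisons.

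The fallers were the base chaperone PSMD5 and PSME3IP1 in both formulae, and with Samul-tang also PSMF1 and PSMD8. PSMF1 had 111, 121 and 125 CPM with Samul-tang against 134, 136 and 145 CPM in the vehicle (-0.22 ± 0.07, adjusted p = 0.017), without overlap. Between the formulae at 500 µg/mL 0 members passed edgeR's test, where 0.318% of genes did. There 2 members had an unadjusted p under 0.05, as did 4.05% of genes, DESeq2 called 0, and the median difference was 0.03.

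The formulae lie wholly in the second library set and the vehicle wholly in the first. The set difference could be read within the 6 Cinnamomi Cortex and Astragali Radix groups, which span both sets, none of whose libraries belong to a formula or the vehicle. These values were chosen for display after earlier ones were seen. There 14 members were higher in the second set in 6 of 6 groups and 15 lower in 6 of 6, against 17.1% and 15.5% of all genes. PSMA7 was higher by 0.29, PSMC3 by 0.22 and PSMB5 and PSMD4 by 0.20 on the log2 scale, and PSMA4 lower by 0.18. With Cinnamomi Cortex at 500 µg/mL PSMA7 had 179, 174 and 251 CPM, of which the first belongs to the first set, and with Astragali Radix at 500 µg/mL 176, 227 and 211 CPM. Over the 45 members, the set difference and the difference of Sagunja-tang at 500 µg/mL from the vehicle had a Pearson r of 0.92, and that of Samul-tang likewise 0.92, against 0.42 and 0.43 over all 16356 genes. The points of each correlation are genes that share the same libraries.

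With a term for the set, estimated through those 6 groups, Sagunja-tang had 4 members higher where 2.12% of genes passed, and Samul-tang 0 where 1.22% passed. There 24 members had an unadjusted p under 0.05 with Sagunja-tang, as did 2323 of the 16356 genes, and 14 with Samul-tang, as did 13.0% of genes. The 4 were PSMC5 at 0.25 ± 0.07 (adjusted p = 0.036), PSME2 at 0.23 ± 0.06 (0.048), PSMA4 at 0.21 ± 0.05 (0.012) and PSMA1 at 0.20 ± 0.06 (0.036), and 3 of them had also passed without the term. PSMA7 stood at 0.21 ± 0.11 with Sagunja-tang and 0.20 ± 0.11 with Samul-tang in this fit, with adjusted p of 0.38 and 0.45. The members' medians remained positive, at 0.13 and 0.10, with 42 and 39 of 45 above 0. Without the term, leaving out vehicle replicate 3 took the counts to 14 and 6, where 1364 and 1126 of 16626 genes passed. Leaving out Samul-tang 500 replicate 1 took the Samul-tang count to 11.

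**Figure D3:**
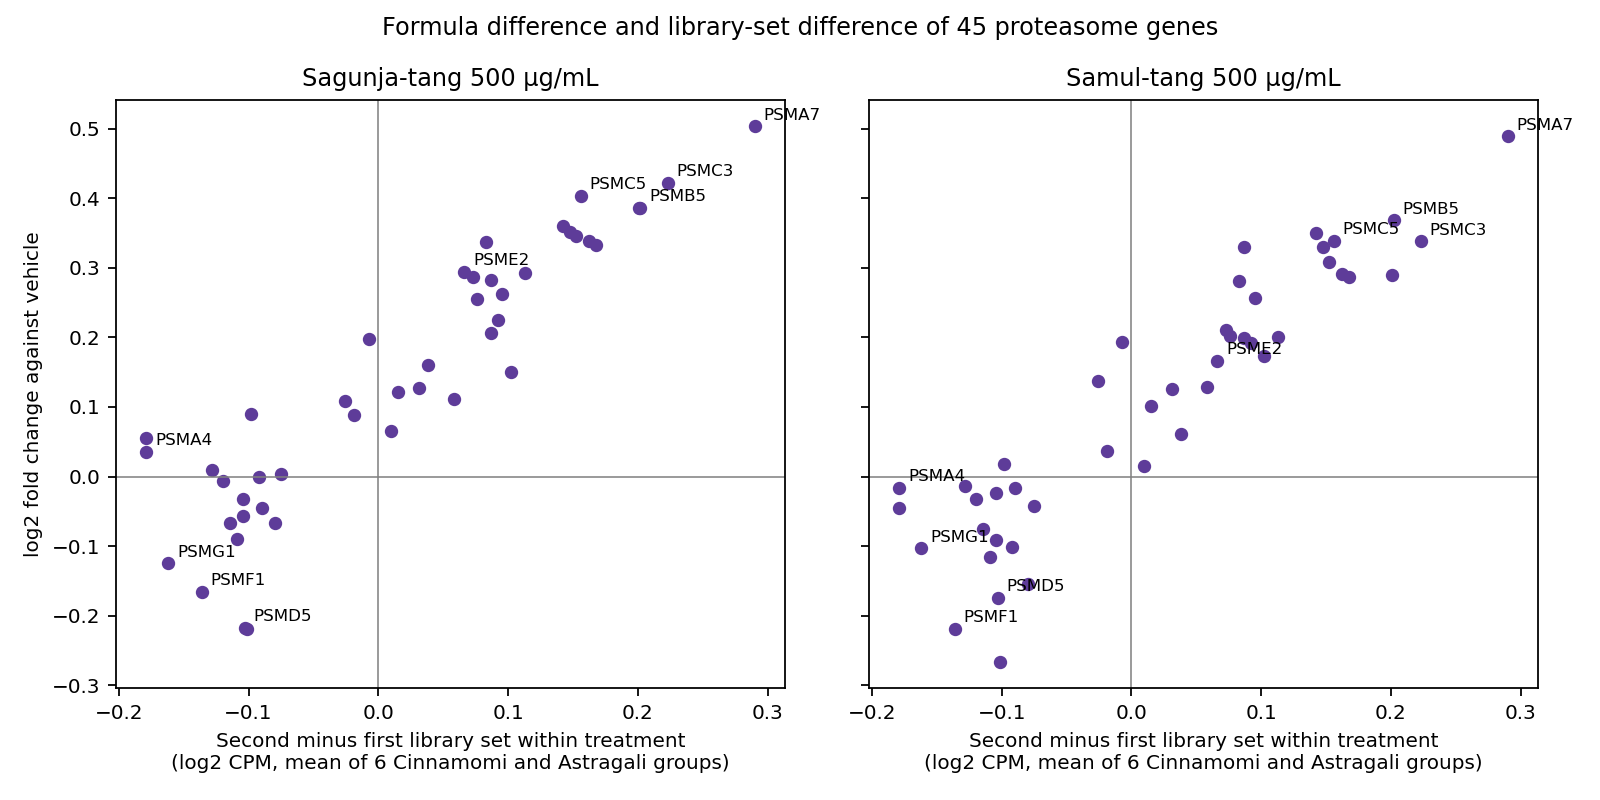
Each point is one of the 45 tested members: the difference of the second from the first library set within 6 Cinnamomi Cortex and Astragali Radix groups (horizontal) and of a formula at 500 µg/mL from the vehicle (vertical), both on the log2 scale. PSMA7 is farthest to the right, at 0.29, and highest in both formulae, while PSMA1, at -0.01 between the sets, is higher by 0.20 and 0.19 in the formulae.

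**Figure D4:**
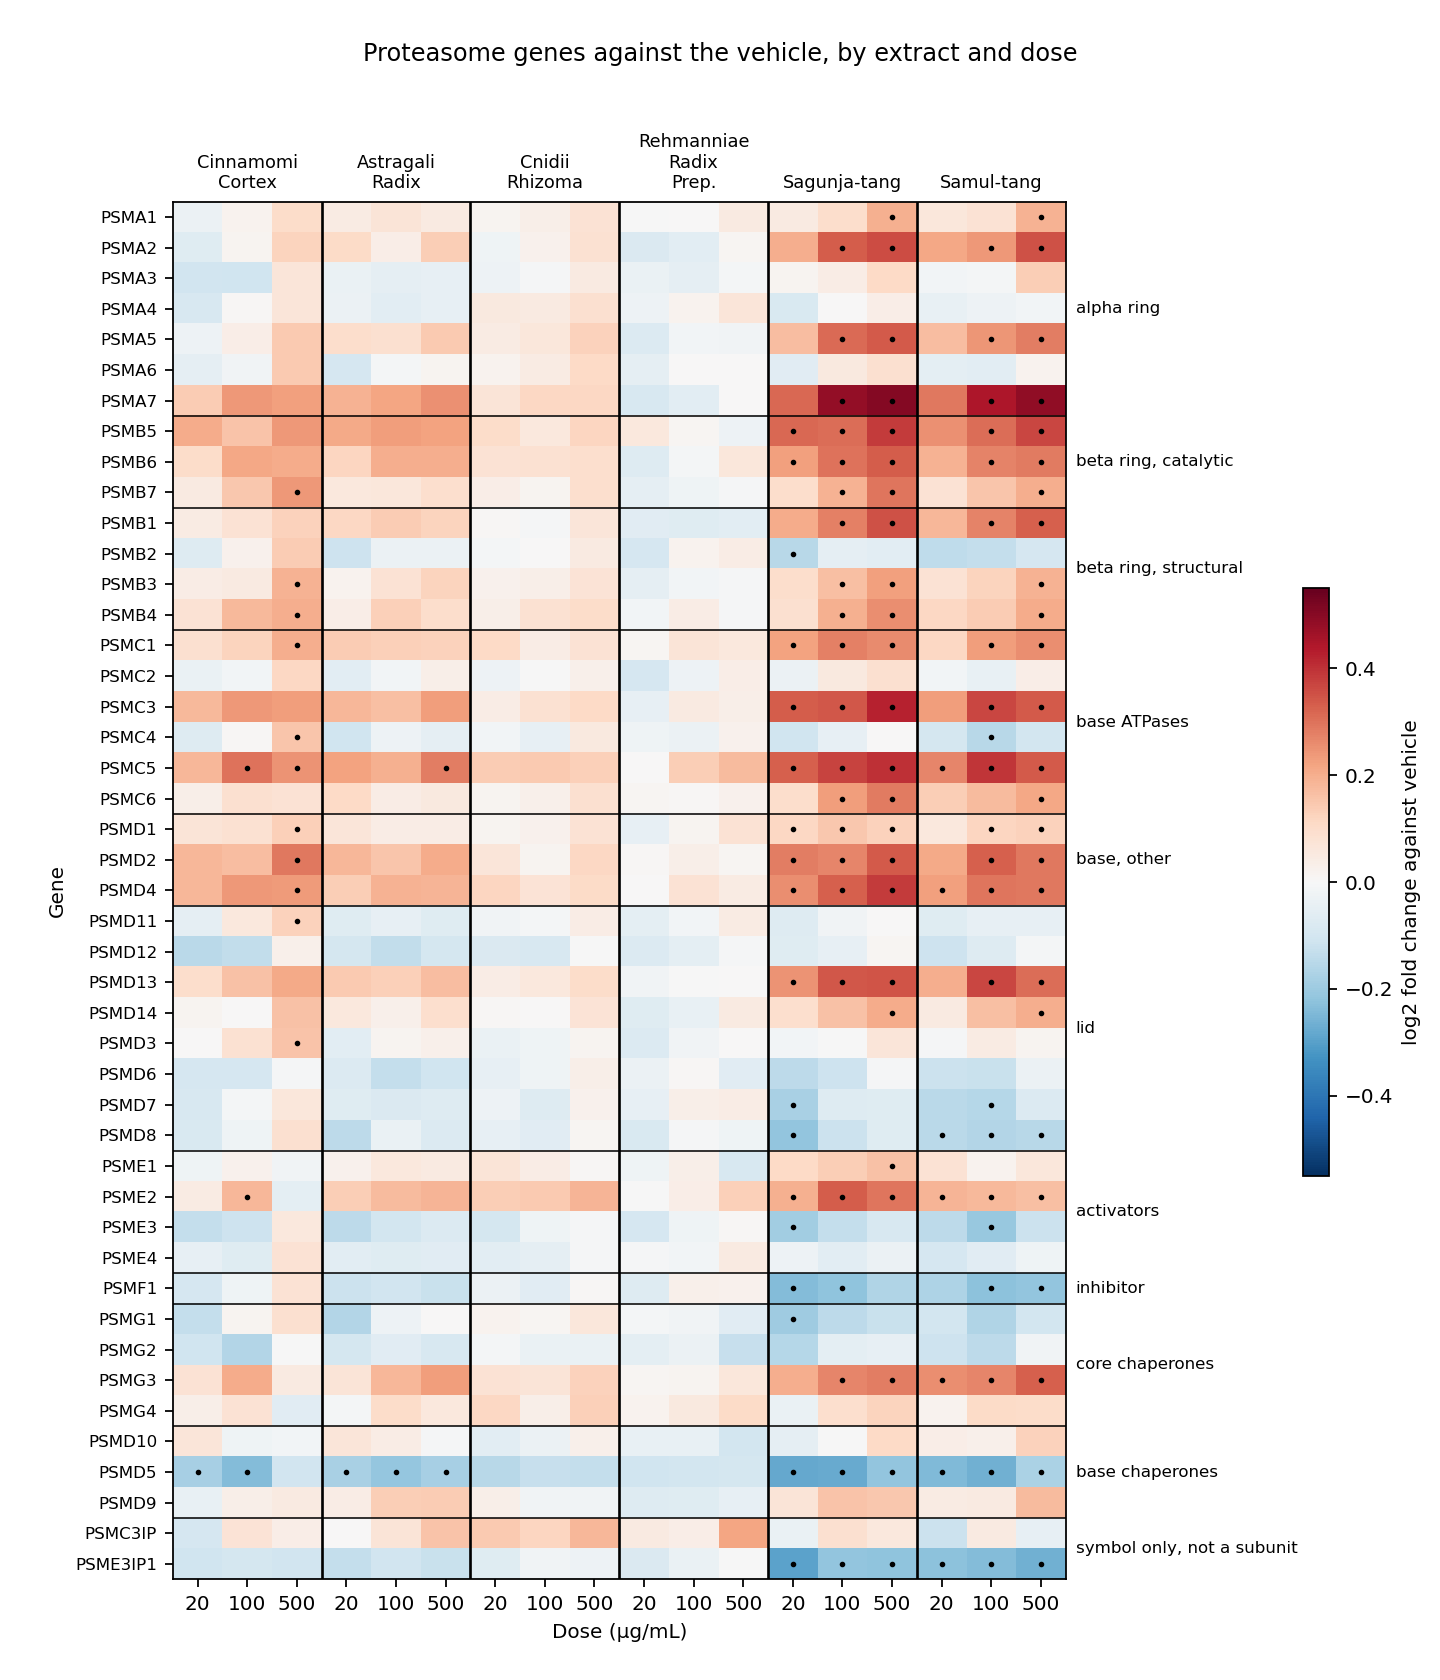
Log2 difference of each group from the vehicle for the 45 tested members, by role, with extracts and doses in columns and a dot where the adjusted p is under 0.05. The members highest in Sagunja-tang and Samul-tang include PSMA7, PSMC3 and PSMC5, and PSMD5 is below the vehicle in every column.

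PSMD5, a chaperone that helps assemble the ATPase base, differed from the other members. It was singled out after its values were seen. In the vehicle it had 109, 109.7 and 110.3 CPM, and all 54 libraries of the 18 replicated extract groups lay below the lowest of these, 24 of them from the first set and 30 from the second. It was the only member with all 54 libraries on one side of the vehicle. Over all genes 0.116% lay wholly below and 0.208% wholly above, and the comparison rests on 3 vehicle libraries with an SD of 0.83 CPM. Cinnamomi Cortex cells had 103, 91.0 and 94.9 CPM at 20 µg/mL, 96.8, 86.1 and 96.0 CPM at 100 µg/mL and 107, 104 and 94.6 CPM at 500 µg/mL. The level was lowest with Sagunja-tang at 20 and 100 µg/mL, at 90.2 and 90.3 CPM, and highest among the extracts with Rehmanniae Radix Preparata at 500 µg/mL, at 102 CPM.

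PSMD5 was lower at an adjusted p under 0.05 in 11 of the 18 groups against the vehicle. The log2 difference was -0.24 ± 0.05 with Cinnamomi Cortex at 100 µg/mL, -0.21 ± 0.05 with Astragali Radix at 100 µg/mL, -0.28 ± 0.05 with Sagunja-tang at 20 µg/mL and -0.26 ± 0.05 with Samul-tang at 100 µg/mL. It did not pass in Cinnamomi Cortex at 500 µg/mL or in any group of Cnidii Rhizoma or Rehmanniae Radix Preparata. With the set term it was lower in 5 groups: Cnidii Rhizoma at 20 and 500 µg/mL, Cinnamomi Cortex at 100 µg/mL and Sagunja-tang at 20 and 100 µg/mL.

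**Figure D5:**
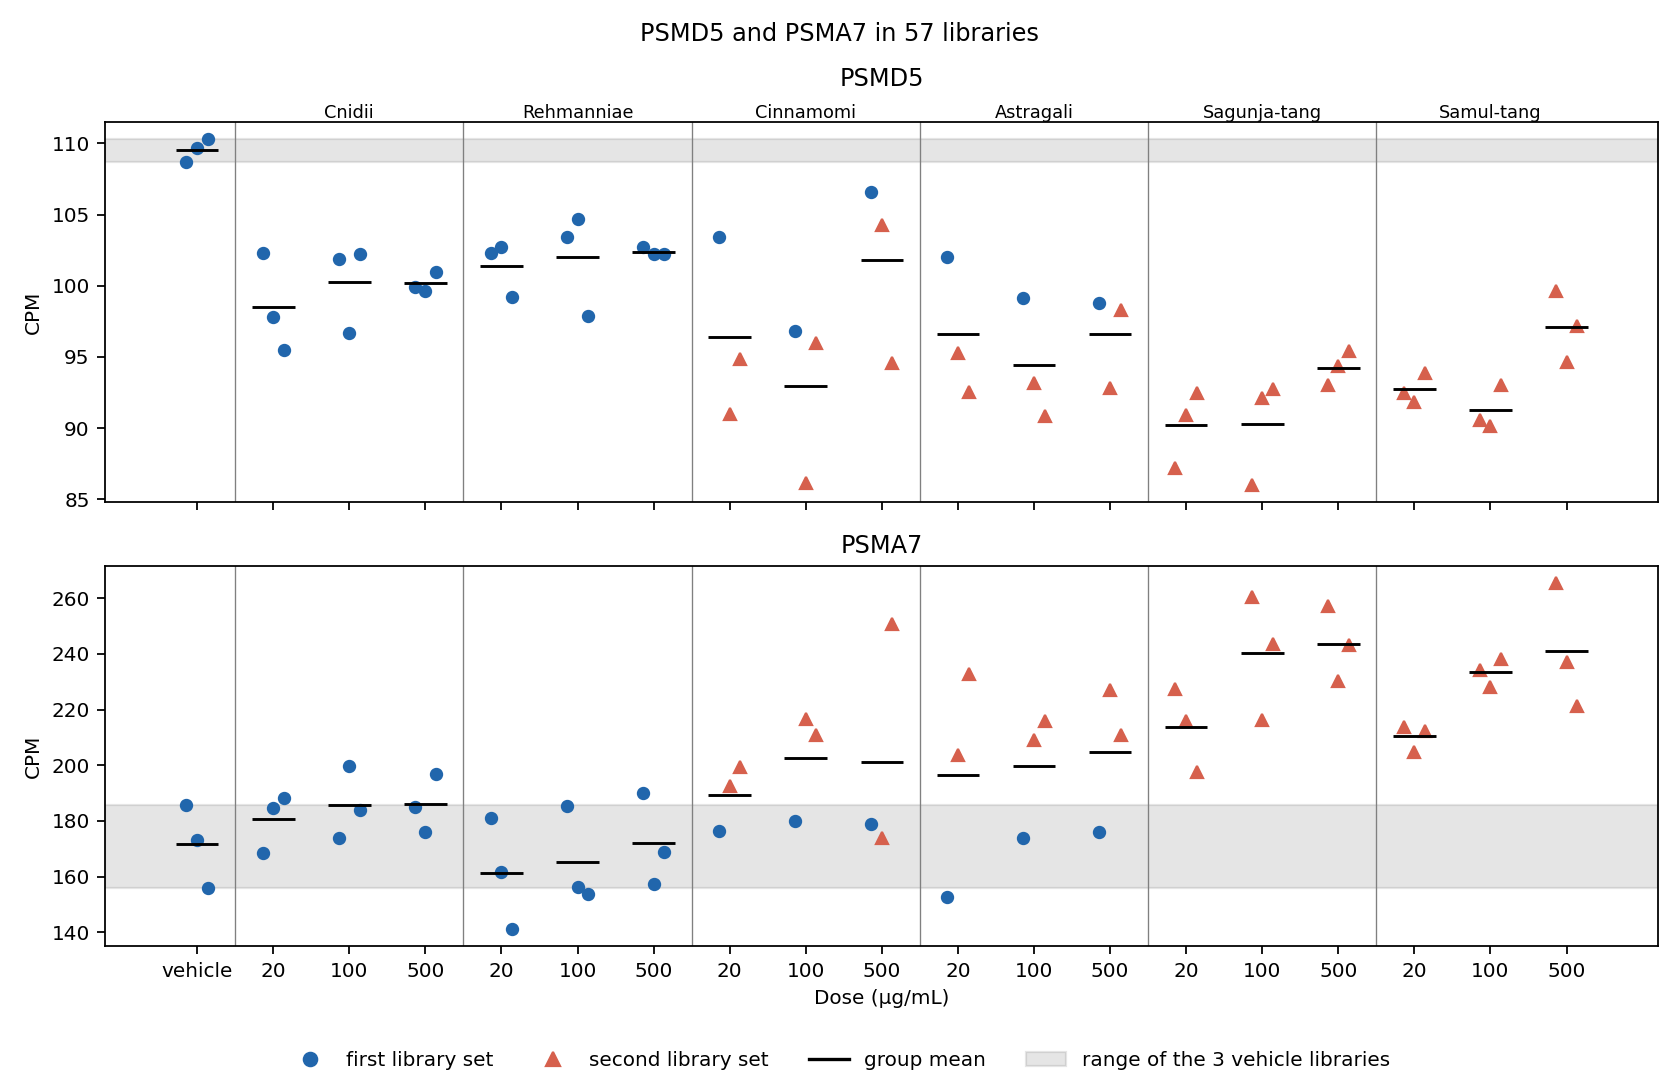
CPM per library of PSMD5 and PSMA7 in every replicated group, with the library set shown by the marker and the vehicle range shaded. PSMD5 lies below the 109 to 110.3 CPM of the vehicle in all 54 extract libraries, while PSMA7 is above the vehicle range in every library of the second set except Cinnamomi Cortex 500 replicate 2 at 174 CPM.

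At the lower doses most calls against the vehicle were again in the formulae and depended on the library set. With Sagunja-tang 10 rose and 8 fell at 20 µg/mL, where 18.5% of genes passed, and 19 rose and 3 fell at 100 µg/mL, where 16.6% passed. With Samul-tang 4 rose and 3 fell at 20 µg/mL, where 11.0% passed, and 15 rose and 7 fell at 100 µg/mL, where 21.9% passed. PSMC5 rose in all 4 of these groups, by 0.27 to 0.39, and the fallers included PSMD8 at 20 µg/mL of both. Cinnamomi Cortex had PSMC5 and PSME2 higher and PSMD5 lower at 100 µg/mL, where 8.08% of genes passed, and only PSMD5 lower at 20 µg/mL, where 1.71% passed. Once the set term was added, 1 and 2 members passed with Sagunja-tang at 20 and 100 µg/mL, where 0.605% and 0.66% of genes passed. At the same doses 0 and 0 passed with Samul-tang (0.367% and 0.55% of genes), and 0 and 1 with Cinnamomi Cortex (0.22% and 1.52%).

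Astragali Radix had PSMC5 higher at 500 µg/mL, with 114, 132 and 122 CPM against 107, 100.4 and 95.8 CPM in the vehicle (0.28 ± 0.07, adjusted p = 0.016), without overlap. Its only other call was PSMD5, lower at all 3 doses, where 1.39%, 2.51% and 3.58% of genes passed at 20, 100 and 500 µg/mL. In the fit with the set term 0 members passed at any of these doses, where 0.257%, 0.569% and 0.825% of genes did, and PSMC5 stood at 0.17 ± 0.06 (adjusted p = 0.23). Without that term PSMC5 passed in 2 of 6 refits that left out 1 library and was lost without vehicle replicate 2 or 3 or Astragali Radix replicate 2 or 3. Cnidii Rhizoma and Rehmanniae Radix Preparata, whose libraries share the vehicle's set, had 0 members past edgeR's test at any dose. At 20, 100 and 500 µg/mL, 0.293%, 0.147% and 1.48% of genes passed with Cnidii Rhizoma, and 4, 3 and 5 members had an unadjusted p under 0.05, as did 7.34%, 6.76% and 11.8% of genes. With Rehmanniae Radix Preparata 0.434%, 0.208% and 0.636% of genes passed, and 2, 1 and 6 members had an unadjusted p under 0.05, as did 6.02%, 6.47% and 9.10% of genes. DESeq2 called 1 member with Cnidii Rhizoma at 500 µg/mL and 0 in the other 5 groups. With Cnidii Rhizoma at 500 µg/mL 38 of 45 members were positive, with a median of 0.08, the largest being PSME2 at 0.19 ± 0.06 (adjusted p = 0.098), and with Rehmanniae Radix Preparata 28 were, with a median of 0.01.

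Against the vehicle, the members' median was higher at each higher dose in the 6 replicated extracts, but in 4 of them the order changed when single libraries were left out. From 20 through 100 to 500 µg/mL it was -0.03, 0.03 and 0.11 with Cinnamomi Cortex, and 0.05, 0.10 and 0.13 with Sagunja-tang, and this order stood in 12 of 12 refits of each. It was 0.04, 0.05 and 0.13 with Samul-tang, where the order changed in 1 of 12 refits, without its 20 µg/mL replicate 2. It was -0.045, -0.008 and 0.011 with Rehmanniae Radix Preparata, changing in 2 of 12, without 100 µg/mL replicate 3 or 500 µg/mL replicate 1. Astragali Radix had 0.024, 0.042 and 0.051, changing in 5 of 12, and Cnidii Rhizoma 0.016, 0.017 and 0.077, changing in 6 of 12. Without vehicle replicate 1, for example, Astragali Radix had 0.0854 at 100 and 0.0844 at 500 µg/mL, and Cnidii Rhizoma 0.068 at 20 and 0.061 at 100 µg/mL. The members' share of all counts at 500 µg/mL was 0.573 ± 0.024% with Cinnamomi Cortex, 0.608 ± 0.0032% with Sagunja-tang and 0.596 ± 0.018% with Samul-tang. It was 0.565 ± 0.011% with Astragali Radix, 0.562 ± 0.011% with Cnidii Rhizoma and 0.538 ± 0.032% with Rehmanniae Radix Preparata. The vehicle had 0.536 ± 0.028% (SD, n = 3 each). The lowest Cinnamomi Cortex library, at 0.5575%, lay below the highest vehicle library, at 0.5639%. The formulae and the vehicle lie in different library sets. These comparisons share the vehicle libraries.

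Paeoniae Radix had 1 library per dose and no test. Relative to the vehicle mean the members' median log2 difference was 0.24 at 20 µg/mL, 0.10 at 100 µg/mL and 0.11 at 500 µg/mL. At 20 µg/mL 17 members were above the vehicle by over 0.3 and 3 below by as much, against 12.7% and 11.1% of all genes. The highest were PSMA7 at 0.79 (296.5 CPM) and PSMA2 at 0.78, and the 3 lower ones were PSMF1 at -0.37, PSME3IP1 at -0.35 and PSMD8 at -0.31. At 100 and 500 µg/mL 0 members passed 0.3 in either direction, against 5.23% of genes above and 4.02% below at 100 µg/mL and 5.94% above and 4.78% below at 500 µg/mL. Its library at 20 µg/mL thus stood apart from the other doses, and no replicate is there to set it against. The codes of these 3 libraries fall in neither of the sets used above.

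Genes that work with the proteasome were followed as a list of 42, of which all were tested. At 500 µg/mL of Cinnamomi Cortex 8 rose and 0 fell against 20 µg/mL, where 10.2% of all genes passed, and 8 rose and 0 fell against the vehicle, where 12.9% did. Both comparisons held SQSTM1, the autophagy receptor p62 that gathers ubiquitin-tagged proteins. It had 488, 447 and 523 CPM at 500 µg/mL and 381, 386 and 380.0 CPM at 20 µg/mL, a log2 difference of 0.35 ± 0.06 (adjusted p = 1.0e-04). Against 20 µg/mL the shuttle RAD23B (0.21 ± 0.04), the proteasome-bound TXNL1 (0.26 ± 0.08), ADRM1 (0.17 ± 0.06) and USP14 (0.16 ± 0.05), and BAG3, UFD1 and UBQLN1 also rose. SQSTM1, RAD23B and UBQLN1 passed whichever of the 6 libraries was left out, while TXNL1, USP14, BAG3 and UFD1 passed in 2 of 6 such refits and ADRM1 in 0 of 6.

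NFE2L1 itself had 298, 302 and 325 CPM with Cinnamomi Cortex at 500 µg/mL against 277, 265 and 270.1 CPM in the vehicle, without overlap (0.19 ± 0.04, adjusted p = 0.0012), and its difference from 20 µg/mL was 0.10 ± 0.04 (adjusted p = 0.14). MAFK and MAFG, its small partners, and KEAP1 also rose against the vehicle, by 0.27, 0.21 and 0.25. NFE2L1 passed in 6 of 6 refits that left out 1 library, MAFK in 4, and MAFG and KEAP1 in 3. With Sagunja-tang at 500 µg/mL NFE2L1 stood at 0.03 ± 0.04 and with Samul-tang at -0.01 ± 0.04 (adjusted p = 0.70 and 0.87). In the formulae 9 of the 42 rose and 3 fell with Sagunja-tang, where 20.2% of all genes passed, and 8 rose and 3 fell with Samul-tang, where 18.5% did, among them VCP, POMP and MAFK higher and NFE2L2 and AKIRIN2 lower in both. Of the 42, 0 passed in either formula with the set term at 500 µg/mL. With Astragali Radix at 500 µg/mL KEAP1 alone rose, and with Cnidii Rhizoma and Rehmanniae Radix Preparata 0 of the 42 passed.

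The immunoproteasome genes encode catalytic subunits that replace the ordinary ones under interferon. They were low here, at 16.2 CPM for PSMB10, 5.35 CPM for PSMB8 and 0.52 CPM for PSMB9 in the vehicle. Cinnamomi Cortex at 500 against 20 µg/mL had negative differences of -0.37 ± 0.13 for PSMB10, -0.11 ± 0.10 for PSMB8 and -0.02 ± 0.36 for PSMB9, none of which passed, while with the set term PSMB10 fell (-0.38 ± 0.09, adjusted p = 0.0017). With Sagunja-tang PSMB10 rose by 0.39 ± 0.13 and PSMB8 by 0.36 ± 0.10, and with Samul-tang PSMB10 by 0.38 ± 0.13. With the set term PSMB10 stood at -0.02 ± 0.10 and -0.02 ± 0.10 in these formulae.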

How the data were processed

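The authors deposited expected counts per Ensembl gene, as RSEM estimates them, with no further normalization. The submitters' processing notes name RSEM 1.3.3, STAR 2.7.3a, Trim Galore 0.6.5, FastQC 0.11.9 and the GRCh38 (hg38) build, and the strand setting is not given in the sources used here. Values were rounded to whole numbers. Of the columns, 60 belong to these samples by their labels, and 213 others were left out. Genes with too few counts were removed by filterByExpr (minimum count 10), leaving 16356. Genes were tested with the quasi-likelihood method of edgeR 4.0.16 in R 4.3.3, using TMM factors of 0.938 to 1.043, 1 coefficient per group over 57 libraries, and Benjamini-Hochberg adjustment within each of 27 comparisons at 0.05. Its common biological coefficient of variation was 0.0571, and the fit was tested on simulated data. A first criterion there, on genes of any level, was not met, and it was replaced by one on genes of at least 20 CPM, which was. CPM are scaled by TMM. Single-library differences use log2(CPM + 0.5).

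The members, the gene lists, the boundary between the library sets and the comparisons were chosen with earlier results of these data known. In each main comparison the members named are up to 6 called ones with the largest difference and at least 1 per role, and the catalytic subunits and activators could be named whatever their values. Alternatives were DESeq2 1.42.0, RLE factors, no filter, a replicate block, a library set term, fits of the compared groups alone and leaving out each library. Replicate numbers come from the labels. For Astragali Radix at 500 against 20 µg/mL same-numbered libraries deviated together, with correlations of 0.473, 0.124 and 0.265, and with the replicate block 0 members passed, as without it. Across extracts, Cinnamomi Cortex 500 and Astragali Radix 500 had 0.323, -0.109 and 0.279. In these groups replicate 1 is in the first library set and replicates 2 and 3 in the second, so pairing and set cannot be told apart.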

Additional observations from a re-analysis of the deposited data

Results flagged for a closer look

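The change of SQSTM1 between 20 and 500 µg/mL differed between 2 extracts by a test of the difference itself. With Cinnamomi Cortex SQSTM1 had 488, 447 and 523 CPM at 500 µg/mL and 381, 386 and 380.0 CPM at 20 µg/mL, while with Astragali Radix it had 354, 336 and 335 CPM at 500 µg/mL and 370.2, 383 and 382 CPM at 20 µg/mL. The dose groups did not overlap in either extract, and they lay in opposite directions. With Cinnamomi Cortex 10.8% of all genes had all top-dose libraries above, and with Astragali Radix 4.92% had all below. Between the doses of Astragali Radix SQSTM1 did not pass, nor did any other of the 42 listed genes. The difference between the dose effects was 0.49 ± 0.09 on the log2 scale (SE; adjusted p = 2.5e-04, edgeR's quasi-likelihood test with Benjamini-Hochberg adjustment). It passed in 12 of 12 refits that each left out 1 library, at 0.44 to 0.54. Of the 42 listed genes 1 passed this test, where 2.57% of all genes did.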

How the results depend on the processing

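The counts of members past the threshold changed most with the library set term, with vehicle libraries left out and, in some extracts, with only the compared groups in the fit. Adding the library set term gave 17 for Cinnamomi Cortex 500 against 20 µg/mL and, against the vehicle, 4, 2 and 1 for Sagunja-tang at 500, 100 and 20 µg/mL, 0 for Samul-tang and Astragali Radix at each dose, 1 and 0 for Cinnamomi Cortex at 100 and 20 µg/mL, and 1 for Cnidii Rhizoma at 500 and at 20 µg/mL. With the set term and the replicate block they were 18 for Cinnamomi Cortex 500 against 20 µg/mL, 1, 0 and 0 for Sagunja-tang, 0 for Samul-tang and Astragali Radix, 1 and 0 for Cinnamomi Cortex at 100 and 20 µg/mL, 2 and 1 for Cnidii Rhizoma at 500 and 20 µg/mL, and 2 for the dose effect of Cinnamomi Cortex against Astragali Radix. With the replicate block alone the counts were 5 and 2 for Cinnamomi Cortex at 100 and 20 µg/mL, 2 for Astragali Radix at 100 µg/mL and 2 for the dose effect, and for Cinnamomi Cortex 500 against 20 µg/mL 12. By the labels same-numbered libraries share only a number, but in Cinnamomi Cortex and Astragali Radix the numbers also follow the library sets. For Cinnamomi Cortex 500 against 20 µg/mL the correlations were 0.304, -0.053 and 0.279. Only the groups compared gave 0 for Cinnamomi Cortex at each dose and against 20 µg/mL (also 0 there with the set term), 0 for Astragali Radix at each dose, 19 for Samul-tang at 20 µg/mL, and 1 for Cinnamomi Cortex against Astragali Radix (3 with the set term). Such fits gave 25 for Sagunja-tang and 23 for Samul-tang at 500 µg/mL, against 24 and 25 in the main fit. No filter gave 7, 4 and 4 for Astragali Radix at 500, 100 and 20 µg/mL, 6 and 4 for Cinnamomi Cortex at 100 and 20 µg/mL, 16 for Samul-tang at 20 µg/mL and 1 for Samul-tang 500 against 20 µg/mL. DESeq2 gave 6 for Cinnamomi Cortex at 100 µg/mL, 13 for Samul-tang at 20 µg/mL and 1 for Cnidii Rhizoma at 500 µg/mL. The number of all genes that passed moved as well. With set term and block it was 2658 of 16356 for Cinnamomi Cortex 500 against 20 µg/mL. Without the filter it was 1223, 958 and 945 of 34269 for Astragali Radix at 500, 100 and 20 µg/mL. Only the compared groups gave 669 of 14765 for Cinnamomi Cortex and 3770 of 15062 for Sagunja-tang at 500 µg/mL against the vehicle. DESeq2 gave 2140 of 16356 for Samul-tang at 20 µg/mL. The cause of these shifts was not tested.

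Leaving out 1 library gave 2 to 16 for Cinnamomi Cortex, 14 to 25 for Sagunja-tang, 6 to 26 for Samul-tang and 0 to 4 for Astragali Radix at 500 µg/mL against the vehicle. At 100 µg/mL it gave 1 to 9, 6 to 24, 6 to 26 and 0 to 4 for these extracts, and at 20 µg/mL 0 to 2, 4 to 19, 1 to 11 and 0 to 10. It gave 3 to 14 for Cinnamomi Cortex 500 against 20 µg/mL, 3 to 10 against Astragali Radix, 0 to 1 for the dose effect, and 0 to 0 in the other comparisons. The low ends came without vehicle replicate 3 for both formulae at every dose. At 500, 100 and 20 µg/mL 1364, 832 and 1196 of 16626 genes then passed with Sagunja-tang, and 1126, 1706 and 544 with Samul-tang. Sagunja-tang at 20 µg/mL had 11 without vehicle replicate 2, 7 without its own replicate 1 and 11 without its replicate 3, and at 100 µg/mL 11 without its replicate 3. Samul-tang at 20 µg/mL had 11, 3 and 1 without vehicle replicates 1, 2 and 3, and 1 and 4 without its own replicates 2 and 3. Astragali Radix at 500 µg/mL had 0 without vehicle replicate 2 or 3 or its own replicate 2 or 3, and at 20 µg/mL 10 without its own replicate 1. Of single genes, those that changed sign were UBE3C at -0.006 (Sagunja-tang 500, set term and block), PSMB10 at -0.018 and -0.020 with the set term and -0.060 and -0.061 with set term and block (Sagunja-tang and Samul-tang at 500 µg/mL), and, with set term and block at 20 µg/mL, PSMB6 at -0.007 (Sagunja-tang) and PSMD4 at -0.024 (Samul-tang). The depth of at least 20459346 counts a library left PSMB9, at under 1 CPM, at the lowest level of the genes named, and the spread between libraries was a median SD of 0.076 on the log2 scale within groups for the members.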
